A study of Mus musculus with 16 samples.

Results

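Whole lungs from mice of a line titled BALB-RAG were compared after exposure to ovalbumin (OVA), an egg white protein used as an allergen, and after exposure to phosphate-buffered saline (PBS). The comparison took every array whose title gave that line: 4 arrays titled BALB-RAG_OVA and 4 titled BALB-RAG_PBS, which are 8 of the 16 arrays of the study. The other 8 arrays came from BALB/c mice under the same exposures, 4 with OVA and 4 with PBS. Lungs were harvested at day 22 (the last exposure was 1 day earlier), and RNA was hybridised to Affymetrix arrays. The design asks how a lung responds to an allergen in experimental asthma with and without the Rag pathway. The titles are the only source for the line: no label names the Rag allele, the animals' sex or age, or the dose and route of the allergen.

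The Rag genes encode the recombinase that joins the segments of antigen receptor genes, and mice without it make no mature T or B cells. In allergic lung inflammation, T helper cells of type 2 release interleukins that turn airway epithelium towards mucus secretion, attract eosinophils and switch macrophages to the alternatively activated state. Epithelium, macrophages, neutrophils and other innate cells remain in such mice, and they answer injury and microbial products with antimicrobial and acute phase proteins.

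Values are log2 intensities, and log2 4 was taken as the background. Arrays had median intensities of 18.2 to 20.5, with 52.1 to 53.5% of their probe sets over the background, so no array stood out for its overall signal. Of 9866 genes that carried a name, 7276 were bright enough to be tested. Replicates 1 and 2 of every group differed from replicates 3 and 4 in 2770 genes (limma, adjusted p under 0.05), and this split was kept as a batch term. The labels do not tell whether replicates were separate animals. The p-values then reflect only how much these samples varied, and that variation may be technical.

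Lung markers were present on every array, and lymphocyte markers went against part of the titles. The mean level of 24 alveolar epithelium genes was between 10.5 and 10.7 on all 8 arrays titled BALB-RAG. The mean level of 13 T cell genes was 4.66, 4.65, 4.36 and 4.43 on PBS replicates 1 to 4, and 3.57, 5.19, 3.57 and 3.55 on OVA replicates 1 to 4. In BALB/c after PBS it was 4.27 to 4.58. All 4 PBS arrays and OVA replicate 2 thus had T cell transcripts near or above those of BALB/c, and the other 3 OVA arrays lay lower.

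The B cell and the immunoglobulin and plasma cell lists split the arrays in the same way. The natural killer cell list (3.85 to 4.32 after PBS and 4.07 to 4.44 after OVA) and the innate lymphoid cell list (7.33 to 7.55 and 7.29 to 7.45) did not. The mean of 13 B cell genes was 5.06, 4.84, 5.21 and 4.83 on the PBS arrays, and 3.79, 5.82, 3.86 and 3.86 on the OVA arrays. In BALB/c after PBS it was higher, 5.73 to 6.12. The mean of 9 immunoglobulin and plasma cell genes was 7.57, 6.74, 6.96 and 7.67 on the PBS arrays, and 5.10, 8.66, 5.17 and 5.19 on the OVA arrays. Jchain, which joins the chains of secreted IgA and IgM, read 8.21, 5.88, 7.04 and 8.34 after PBS and 1.73, 10.52, 2.49 and 1.99 after OVA. Cd3d, a subunit of the T cell receptor complex, read 5.93, 5.52, 4.88 and 5.35 after PBS and 2.5, 7.03, 2.32 and 2.38 after OVA. OVA replicate 2 was the highest and the other 3 OVA arrays the lowest of the 8 for both genes. Rag2 lay at the background in both groups of the line (log2 3.27 ± 0.63 after PBS and 3.07 ± 0.11 after OVA, SD, n = 4), so it could not check the genotype, and Rag1 was not analysed here. Groups were kept as titled. What the lymphocyte transcripts contribute to a difference was not tested. Values without OVA replicate 2 cannot test it. The other 3 OVA arrays all had lower T cell, B cell and immunoglobulin list means than the PBS arrays.

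On the arrays labelled BALB-RAG, 38 genes rose and 29 fell after OVA (limma, adjusted p under 0.05), which are 0.522% and 0.399% of the genes tested and 0.921% together. The changes were modest: the median fold among the 67 genes was 1.98, and 33 genes changed more than 2-fold. The antimicrobial gene Lcn2, complement factor Cfb, genes known to respond to glucocorticoids and the matrix enzyme Lox were among the largest rises. Genes of cell division and the fibrillar collagen Col1a1 were among the largest falls. All 67 genes moved in the same direction within replicates 1 and 2 and within replicates 3 and 4, and in 60 of them the 4 arrays of one group all lay above the 4 of the other (4.62% of all genes). Because the 67 were called on these same 8 arrays, both counts follow largely from that choice and are given as a description.

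These counts depended on the batch term and on single arrays. Without the batch term 12 of the 67 genes kept their call, and within replicates 1 and 2 alone or replicates 3 and 4 alone 3 and 5 genes were called. The fit was also repeated with each of the 8 arrays left out: 15 genes kept their call every time, and the number of calls fell to as few as 20 without OVA replicate 4 and rose to 81 without OVA replicate 2. Lcn2, Glul, Clk1, Cks1b, Col1a1 and Cox6b2 were among those 15 genes but lost their call without the batch term.

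**Figure D1:**
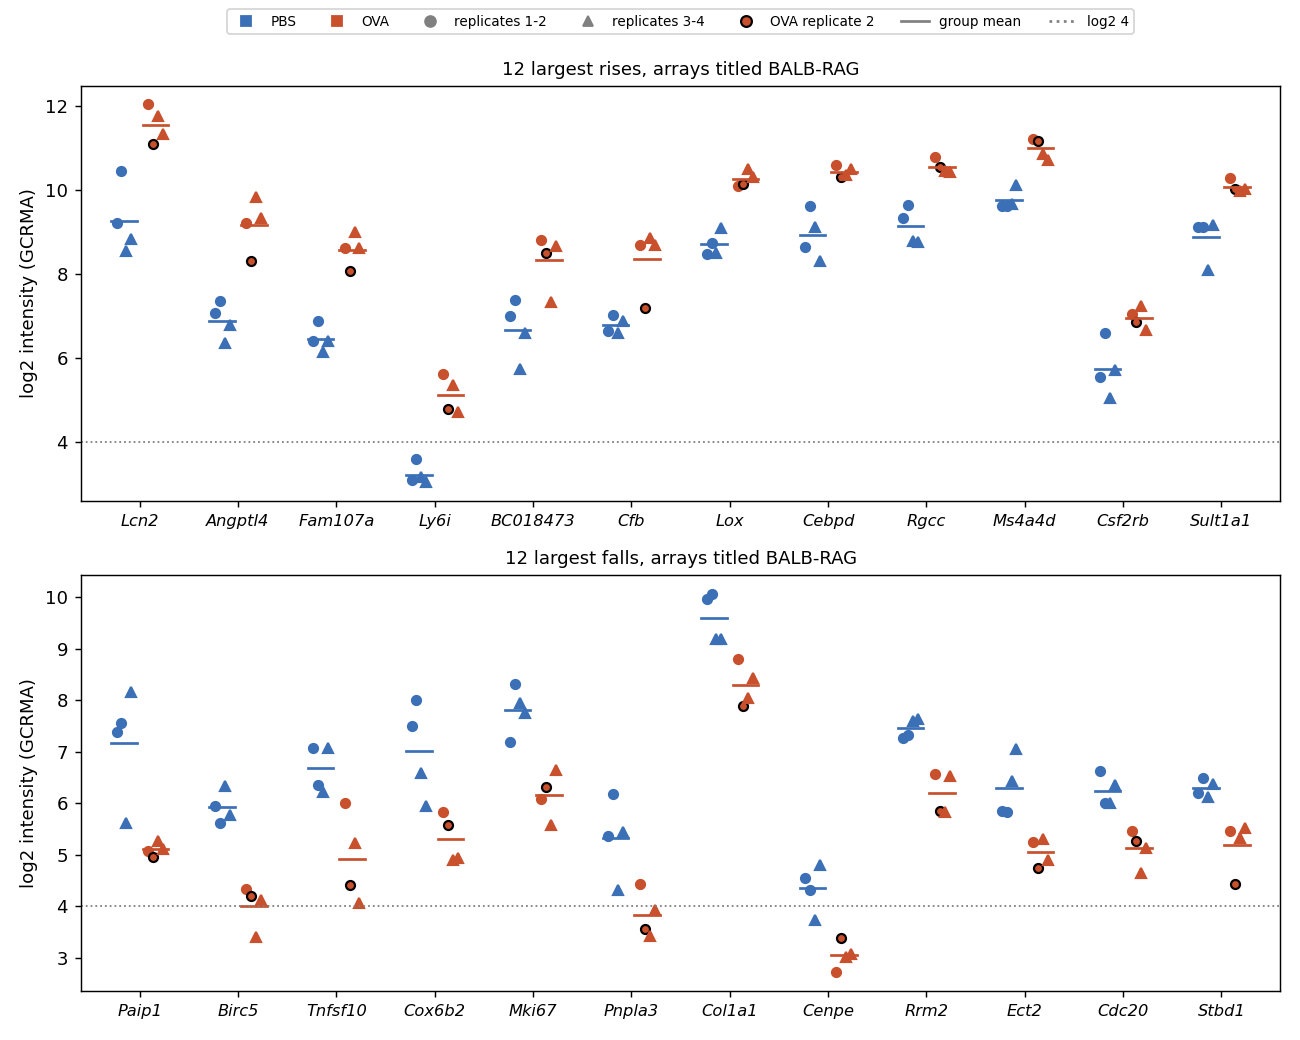
Log2 intensity (vertical axis) of the 12 largest rises (upper panel) and the 12 largest falls (lower panel) on the 8 arrays titled BALB-RAG; each point is 1 array, blue for PBS and red for OVA, circles for replicates 1 and 2, triangles for replicates 3 and 4, a black outline for OVA replicate 2, short lines for group means and a dotted line for log2 4. The groups do not overlap in 22 of the 24 genes, and OVA replicate 2 lies near the PBS arrays for Cfb.

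The largest rise was that of Lcn2. It encodes lipocalin 2, which starves bacteria of iron by binding their siderophores and is made by epithelium and neutrophils. Lcn2 read 9.21, 10.43, 8.54 and 8.82 on PBS replicates 1 to 4 and 12.03, 11.10, 11.76 and 11.32 on OVA replicates 1 to 4. Every OVA array lay above every PBS array, with PBS replicate 2 the highest of the controls and OVA replicate 2 the lowest of the exposed. Lcn2 rose by 2.3 ± 0.34 on the log2 scale, or 4.92-fold (SE, n = 4 per group, limma, adjusted p = 0.00591), and it kept its call with each array left out in turn. It lost the call with no batch term (limma, adjusted p = 0.0534).

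Ly6i, a member of the Ly6 family of small surface proteins, was under the background on all 4 PBS arrays (3.09, 3.58, 3.17 and 3.03). It read 5.62, 4.77, 5.36 and 4.70 after OVA, so it became measurable on every exposed array. Ly6i was at least 2.16-fold higher, with the background taken as the PBS level (fitted difference 1.89 ± 0.25, limma, adjusted p = 0.00344), and it too kept its call in all 8 refits. With values under log2 4 set to 4 before the fit, its adjusted p was 0.0317.

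Cfb, factor B of the alternative complement pathway, read 6.63, 7.02, 6.58 and 6.88 after PBS and 8.69, 7.18, 8.85 and 8.68 after OVA. Of the OVA arrays, 3 lay far above the controls and OVA replicate 2 lay just above them. Cfb rose 2.97-fold (1.57 ± 0.35, limma, adjusted p = 0.0493), but it kept that call in 1 of the 8 refits, with adjusted p-values up to 0.154. C1ra, the protease that starts the classical pathway together with C1s, showed a small shift with little spread: 7.36, 7.37, 7.26 and 7.35 after PBS and 7.80, 7.85, 7.92 and 7.89 after OVA. It rose 1.45-fold (0.53 ± 0.11, limma, adjusted p = 0.0414) with no overlap, and it kept the call in 0 of the 8 refits.

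These were the 2 genes past the test among 9 complement and acute phase genes, beside the 0.522% of all genes that rose. All gene lists were drawn up with earlier results of these data known, so their counts are given as a description. All 9 had a positive difference, with a median of 0.34 against 0.02 over all genes tested, and 5 of the 9 had groups that did not overlap, each with OVA above, beside 2.67% of all genes. Lrg1, a glycoprotein of the acute phase, read 9.30, 9.08, 8.15 and 8.75 after PBS and 9.66, 10.09, 10.12 and 9.70 after OVA (1.07 ± 0.33, limma, adjusted p = 0.166). Serpina3n, a serine protease inhibitor of the acute phase, differed by 0.88 ± 0.28 (adjusted p = 0.169). For both, every OVA array exceeded every PBS array without the test being passed.

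A further 3 rises were genes of myeloid cells, named together after their values were seen. Csf2rb, the shared receptor chain for GM-CSF, interleukin 3 and interleukin 5, read 5.54, 6.59, 5.04 and 5.71 after PBS and 7.03, 6.85, 7.22 and 6.65 after OVA, which is 2.33-fold higher (1.22 ± 0.24, limma, adjusted p = 0.0288). Cd14, the co-receptor for bacterial lipopolysaccharide, read 7.82, 8.08, 7.26 and 7.65 after PBS and 8.84, 8.78, 8.92 and 8.66 after OVA, a rise of 2.13-fold (1.09 ± 0.19, limma, adjusted p = 0.0159). Chil3, a chitinase-like lectin of alveolar macrophages, read 11.94, 12.27, 11.94 and 12.29 after PBS and 12.90, 12.59, 13.09 and 13.07 after OVA. It rose 1.74-fold (0.80 ± 0.17, limma, adjusted p = 0.0467). In all 3 genes the groups did not overlap, and the call was kept in 3, 5 and 1 of the 8 refits in that order. Because these are whole lungs, more cells of a type and more RNA per cell cannot be told apart.

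The marker lists of the myeloid cells held 1 called gene each. Of 11 macrophage genes 1 rose (Cd14) and 0 fell, with a median of 0.33. Of 9 neutrophil genes 1 rose (Lcn2) and 0 fell, with a median of 1.09. Over all genes 0.522% rose and 0.399% fell, and the median was 0.02. Clec4d, a lectin receptor of myeloid cells, read 5.04, 7.15, 6.27 and 5.32 after PBS and 8.10, 7.09, 8.10 and 7.62 after OVA (1.78 ± 0.59, limma, adjusted p = 0.2), so the groups overlapped through PBS replicate 2. The mean of the neutrophil list was 6.16, 8.21, 6.08 and 5.78 on the PBS arrays and 7.64, 7.22, 7.75 and 7.29 on the OVA arrays.

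The mean of the neutrophil list was thus higher on PBS replicate 2 than on any exposed array. Not every member followed: Lcn2 was lower there than on every exposed array, and Clec4d lower than on all but OVA replicate 2. PBS replicate 2 also stood apart in 3 erythroid genes (10.98 against 6.25 to 7.76 on the other PBS arrays) and in Ppbp, a platelet chemokine (11.62 against 6.61 to 7.23). Without that array 54 genes were called, Lcn2 among them. What its neutrophil list level contributes to the other differences was not tested.

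Of the gene lists, the one of genes known to respond to glucocorticoids, the adrenal stress hormones, held the most rises. Of 22 such genes that were tested 8 rose and 0 fell, beside 0.522% and 0.399% of all genes. The median difference was 0.73, against 0.02 over all genes, and 20 of the 22 were positive. At an unadjusted p under 0.05, 13 were higher and 0 lower (limma), beside 8% and 5.39% of all genes. Lcn2 is one of the 8 and is also on the neutrophil list. In 10 of the 22 genes every OVA array exceeded every PBS array, beside 2.67% of all genes. This list was drawn up with earlier results of these data known. Its counts can lean that way by choice and are given as a description.

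The glucocorticoid receptor binds DNA as a dimer, and each partner contacts a motif with the letters AGAACA. Promoter sequences of Fam107a and Tsc22d3 are shown as examples that hold that motif. Sult1a1, the other called gene of the list with the motif, is not printed. They come from RefSeq on the GRCm38.p6 build, each covers 250 bases before the annotated start of transcription, and capitals mark AGAACA or its reverse complement TGTTCT. Fam107a lies at chr14:8309778-8310027 and Tsc22d3 at chrX:140600523-140600772, both read from the minus strand. Each of these genes has 3 promoters in the RefSeq table, and the one with the motif and the lowest coordinate is printed.
Fam107a: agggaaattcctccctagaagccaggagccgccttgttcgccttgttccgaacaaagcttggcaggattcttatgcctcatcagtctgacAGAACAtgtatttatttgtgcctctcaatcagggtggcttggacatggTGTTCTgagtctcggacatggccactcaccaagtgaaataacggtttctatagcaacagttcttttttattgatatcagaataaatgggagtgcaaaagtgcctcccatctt
Tsc22d3: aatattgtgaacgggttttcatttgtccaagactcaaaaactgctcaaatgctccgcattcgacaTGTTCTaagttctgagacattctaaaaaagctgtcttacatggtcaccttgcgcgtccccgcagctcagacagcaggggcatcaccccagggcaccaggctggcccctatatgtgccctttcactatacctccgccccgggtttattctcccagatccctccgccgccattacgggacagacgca
The Fam107a window holds AGAACA starting at −160 and TGTTCT starting at −112 from the start site, and the Tsc22d3 window holds TGTTCT at −185. With both strands searched, the motif was found in a promoter of 3 of the 6 called genes of the list that had one (50%), of 4 of the 17 tested genes of the list (23.5%), of 12.8% of all genes tested and of 18.2% of all genes in the table. A gene with several promoters had more chances to match, and a match of these letters is not a measured binding site.

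Fam107a, an actin-associated stress response gene, read 6.39, 6.87, 6.14 and 6.39 after PBS and 8.60, 8.07, 8.99 and 8.62 after OVA. At their nearest points the groups were more than 1 log2 unit apart. It rose 4.35-fold (2.12 ± 0.27, limma, adjusted p = 0.00316). Angptl4, a secreted inhibitor of lipoprotein lipase, read 7.07, 7.34, 6.34 and 6.79 after PBS and 9.21, 8.31, 9.82 and 9.33 after OVA, with OVA replicate 2 the lowest exposed array. It rose 4.87-fold (2.28 ± 0.34, limma, adjusted p = 0.00591). Glul, glutamine synthetase, read 10.48, 10.61, 9.91 and 10.02 after PBS and 11.39, 11.29, 11.13 and 11.03 after OVA, which is 1.94-fold higher (0.96 ± 0.15, adjusted p = 0.00701). The groups of these 3 genes did not overlap, and all 3 calls were kept in every refit with an array left out. With no batch term Fam107a and Angptl4 kept their call, while Glul lost it (limma, adjusted p = 0.0952).

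The transcription regulators of the list rose as well. Cebpd, a C/EBP family factor of the acute phase, read 8.63, 9.60, 9.11 and 8.31 after PBS and 10.59, 10.30, 10.36 and 10.48 after OVA, a rise of 2.87-fold (1.52 ± 0.26, limma, adjusted p = 0.0159). Tsc22d3, also called glucocorticoid-induced leucine zipper, read 10.36, 11.10, 10.28 and 10.73 after PBS and 11.94, 11.48, 11.78 and 11.79 after OVA, a rise of 2.19-fold (1.13 ± 0.22, adjusted p = 0.0284). In both genes PBS replicate 2 was the highest control, and it stayed under every exposed array. Cebpd kept its call in 5 of the 8 refits and Tsc22d3 in 3.

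Sult1a1, a sulfotransferase that clears phenols, read 9.10, 9.12, 8.09 and 9.15 after PBS and 10.28, 10.02, 9.97 and 10.02 after OVA. It rose 2.31-fold (1.21 ± 0.21, limma, adjusted p = 0.0159), with PBS replicate 3 below the other controls. Errfi1, an inhibitor of the EGF receptor, rose 2.17-fold (1.12 ± 0.24, adjusted p = 0.0488), a call kept in 1 of the 8 refits. Of the best-known members outside the 8, Pdk4, which holds back glucose oxidation, differed by 1.28 ± 0.32 (adjusted p = 0.085), Fkbp5, a chaperone of the steroid receptors, by 1.15 ± 0.42 (adjusted p = 0.258) and Sgk1 by −0.05 ± 0.19 (adjusted p = 0.948). The first 2 had groups that did not overlap and Sgk1 had groups that did.

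The list's mean level was 8.09, 8.46, 7.88 and 8.07 on the PBS arrays and 9.07, 8.69, 9.15 and 9.04 on the OVA arrays, so all exposed arrays were higher, with OVA replicate 2 nearest to the controls. Without that array 9 of the 22 were called, with a median of 1.07. The median difference was 0.55 within replicates 1 and 2 and 1.2 within replicates 3 and 4. Angptl4 and Txnip, a regulator of thioredoxin and glucose uptake (0.72 ± 0.15, adjusted p = 0.0353), were the 2 called genes among 18 that respond to fasting and PPAR factors. Over all genes 0.522% rose. The median of those 18 was −0.0045, near that of all genes.

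Lox, Ccn2 and Nox4 also rose, and they are named together after their values were seen. Lox, the enzyme that crosslinks collagen and elastin, read 8.47, 8.73, 8.50 and 9.09 after PBS and 10.09, 10.14, 10.48 and 10.29 after OVA. Even the lowest exposed array lay far above the highest control, and Lox rose 2.94-fold (1.55 ± 0.15, limma, adjusted p = 0.000261). Ccn2, connective tissue growth factor, read 10.57, 10.84, 10.92 and 10.72 after PBS and 11.87, 11.73, 12.02 and 12 after OVA, a rise of 2.21-fold (1.15 ± 0.18, adjusted p = 0.00721). Nox4, an NADPH oxidase of mesenchymal and endothelial cells, rose 1.81-fold (0.86 ± 0.17, adjusted p = 0.034). The groups did not overlap in these genes. Lox and Ccn2 kept their call in all 8 refits and Nox4 in 1.

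Other rises were spread over genes of various roles. Rgcc, a regulator of the cell cycle that is induced by complement, read 9.33, 9.64, 8.79 and 8.76 after PBS and 10.78, 10.54, 10.43 and 10.42 after OVA (2.67-fold, 1.42 ± 0.18, limma, adjusted p = 0.00284). Ms4a4d, a membrane protein of the CD20 family, rose 2.35-fold (1.23 ± 0.21, adjusted p = 0.0159). The transcript BC018473 rose 3.13-fold (1.65 ± 0.32, adjusted p = 0.0284), with groups that overlapped through OVA replicate 3. Maff, a small basic leucine zipper transcription factor, rose 2.16-fold (1.11 ± 0.22, adjusted p = 0.034), Fibin, a secreted protein first described in fin bud development, 1.96-fold (0.97 ± 0.13, adjusted p = 0.00344), and Clk1, a kinase of splicing factors, 1.65-fold (0.73 ± 0.11, adjusted p = 0.00591). Of these, Rgcc, Fibin and Clk1 kept their call in every refit with an array left out. Clk1 lost it with no batch term (limma, adjusted p = 0.0534). Maff was the 1 gene called among 18 immediate early genes and Lox the 1 called among 18 hypoxia genes, where 0.522% of all genes rose. At an unadjusted p under 0.05 (limma), 3 immediate early and 7 hypoxia genes were higher and 0 lower, beside 8% and 5.39% of all genes. In 1 and 4 of them every OVA array exceeded every PBS array, beside 2.67% of all genes. The list medians were 0.06 and 0.18.

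Genes of the cell division cycle and of the extracellular matrix were the lists with most falls, 8 genes each. Of 46 cell division genes 0 rose and 8 fell, beside 0.522% and 0.399% of all genes. The median was −0.54, against 0.02 over all genes, and 42 of the 46 were negative. At an unadjusted p under 0.05, 29 were lower and 0 higher (limma), beside 5.39% and 8% of all genes. In 18 of the 46 all OVA arrays lay below all PBS arrays, beside 1.95% of all genes. Like the other lists, this one was drawn up with earlier results known, so its counts are given as a description. The median was −0.61 within replicates 1 and 2 and −0.63 within replicates 3 and 4.

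Late cell cycle genes are known to share promoter motifs: TTTGAA, the cell cycle genes homology region, which is read by the DREAM and MuvB complexes, and CCAAT, which is bound by NF-Y. The promoters of 3 genes that fell are shown as examples that hold both motifs. Ect2 and Pnpla3, which also fell, have both among their promoters and are not printed. They are again the 250 bases before the RefSeq start on GRCm38.p6, from the minus strand: Mki67 at chr7:135716380-135716629, Cdc20 at chr4:118437344-118437593 and Cks1b at chr3:89418292-89418541. Capitals mark the TTTGAA motif (or TTCAAA where it lies on the other strand) and the CCAAT motif (or ATTGG where it lies on the other strand).
Mki67: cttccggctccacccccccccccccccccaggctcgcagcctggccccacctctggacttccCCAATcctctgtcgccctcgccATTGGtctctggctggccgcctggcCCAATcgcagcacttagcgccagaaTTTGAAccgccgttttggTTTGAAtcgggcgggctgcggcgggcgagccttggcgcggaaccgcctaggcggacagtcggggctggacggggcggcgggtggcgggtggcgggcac
Cdc20: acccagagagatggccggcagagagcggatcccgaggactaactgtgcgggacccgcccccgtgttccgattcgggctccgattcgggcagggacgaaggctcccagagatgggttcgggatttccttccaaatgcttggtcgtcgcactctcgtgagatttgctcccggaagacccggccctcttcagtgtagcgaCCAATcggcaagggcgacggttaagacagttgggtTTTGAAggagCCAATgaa
Cks1b: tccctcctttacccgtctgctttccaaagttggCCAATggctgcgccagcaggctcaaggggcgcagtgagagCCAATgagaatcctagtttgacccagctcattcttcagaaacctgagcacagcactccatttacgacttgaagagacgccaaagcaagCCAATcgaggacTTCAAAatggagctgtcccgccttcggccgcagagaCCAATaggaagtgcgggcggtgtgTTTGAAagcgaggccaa
TTTGAA starts at −116 and −98 in Mki67, at −18 in Cdc20 and at −17 in Cks1b, where TTCAAA also starts at −77. The motifs do not overlap in these windows. Over both strands TTTGAA was found for 4 of the 7 called genes of the list with a promoter in the table (57.1%), for 12 of the 41 tested genes (29.3%), for 13.3% of all genes tested and for 18.3% of all genes in the table. CCAAT was found for 6 of the 7 (85.7%), for 29 of the 41 (70.7%), for 40.7% of all genes tested and for 37.5% of all in the table. These are counts of letters and say nothing about which factor was bound.

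Mki67, which coats the chromosomes of dividing cells and is the usual proliferation marker, read 7.19, 8.32, 7.95 and 7.75 after PBS and 6.08, 6.32, 5.59 and 6.65 after OVA. Here the lowest control lay above the highest exposed array, and the difference was −1.64 ± 0.25, or 3.13-fold lower (limma, adjusted p = 0.00701). Cks1b, a subunit that docks substrates to cyclin-dependent kinases, read 9.30, 9.08, 8.58 and 8.46 after PBS and 8.43, 8.39, 7.79 and 7.88 after OVA. Cks1b differed by −0.73 ± 0.10, or 1.66-fold (adjusted p = 0.00576), with both batches shifted by a like amount. Mki67 and Cks1b kept their call in all 8 refits. With no batch term Mki67 kept it too (adjusted p = 0.0105), while Cks1b lost it (adjusted p = 0.405), the highest value of the 8 cell division genes.

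The other 6 kept their call in fewer refits. Birc5, or survivin, a subunit of the chromosomal passenger complex, read 5.94, 5.63, 6.34 and 5.78 after PBS and 4.34, 4.2, 3.41 and 4.12 after OVA (3.74-fold lower, −1.90 ± 0.34, limma, adjusted p = 0.021). Cdc20, the activator of the anaphase promoting complex, read 6.63, 6.00, 6.00 and 6.35 after PBS and 5.47, 5.27, 4.65 and 5.13 after OVA (2.17-fold lower, −1.12 ± 0.20, adjusted p = 0.0214). Rrm2, the small subunit of ribonucleotide reductase, read 7.28, 7.32, 7.61 and 7.63 after PBS and 6.58, 5.85, 5.84 and 6.53 after OVA (2.4-fold lower, −1.26 ± 0.27, adjusted p = 0.0482). In all 3 the groups were apart, and the calls were kept in 4, 3 and 0 of the 8 refits.

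Ect2, which directs cytokinesis, fell by 1.25 ± 0.27 (limma, adjusted p = 0.0488) and cyclin A2, Ccna2, by 0.99 ± 0.19 (adjusted p = 0.0282). Cenpe, a kinesin of the kinetochore, was under the background on all 4 OVA arrays and read 4.55, 4.31, 3.74 and 4.79 after PBS, so it was at least 1.33-fold lower (adjusted p = 0.0488 from the values as measured). With values under log2 4 set to 4 before the fit, Cenpe differed by −0.42 ± 0.23 and lost its call (limma, adjusted p = 0.464). Ect2, Ccna2 and Cenpe kept their call in 1, 2 and 2 of the 8 refits. Genes of DNA replication in the list gave smaller values: Pcna, the sliding clamp of DNA polymerase, differed by −0.34 ± 0.12 (adjusted p = 0.222), Mcm2, a subunit of the replicative helicase, by −0.25 ± 0.14 (adjusted p = 0.475) and Mcm6 of the same helicase by 0.03 ± 0.19 (adjusted p = 0.973).

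OVA replicate 2, whose T cell, B cell and immunoglobulin list means lay above all PBS arrays, had cell cycle transcripts like those of the other exposed arrays. The list's mean was 5.74, 5.70, 5.69 and 5.89 on the PBS arrays and 5.15, 5.06, 4.92 and 5.08 on the OVA arrays. Without OVA replicate 2 the list had 6 falls and a median of −0.54. In BALB/c after PBS the list's mean was 4.93 to 5.30, so the exposed arrays labelled BALB-RAG lay near those controls and the PBS arrays of the line lay above them. That difference between the lines was not tested. What lymphocyte transcripts contribute to the cell cycle values was not tested either, and OVA replicate 2 is a single array.

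**Figure D2:**
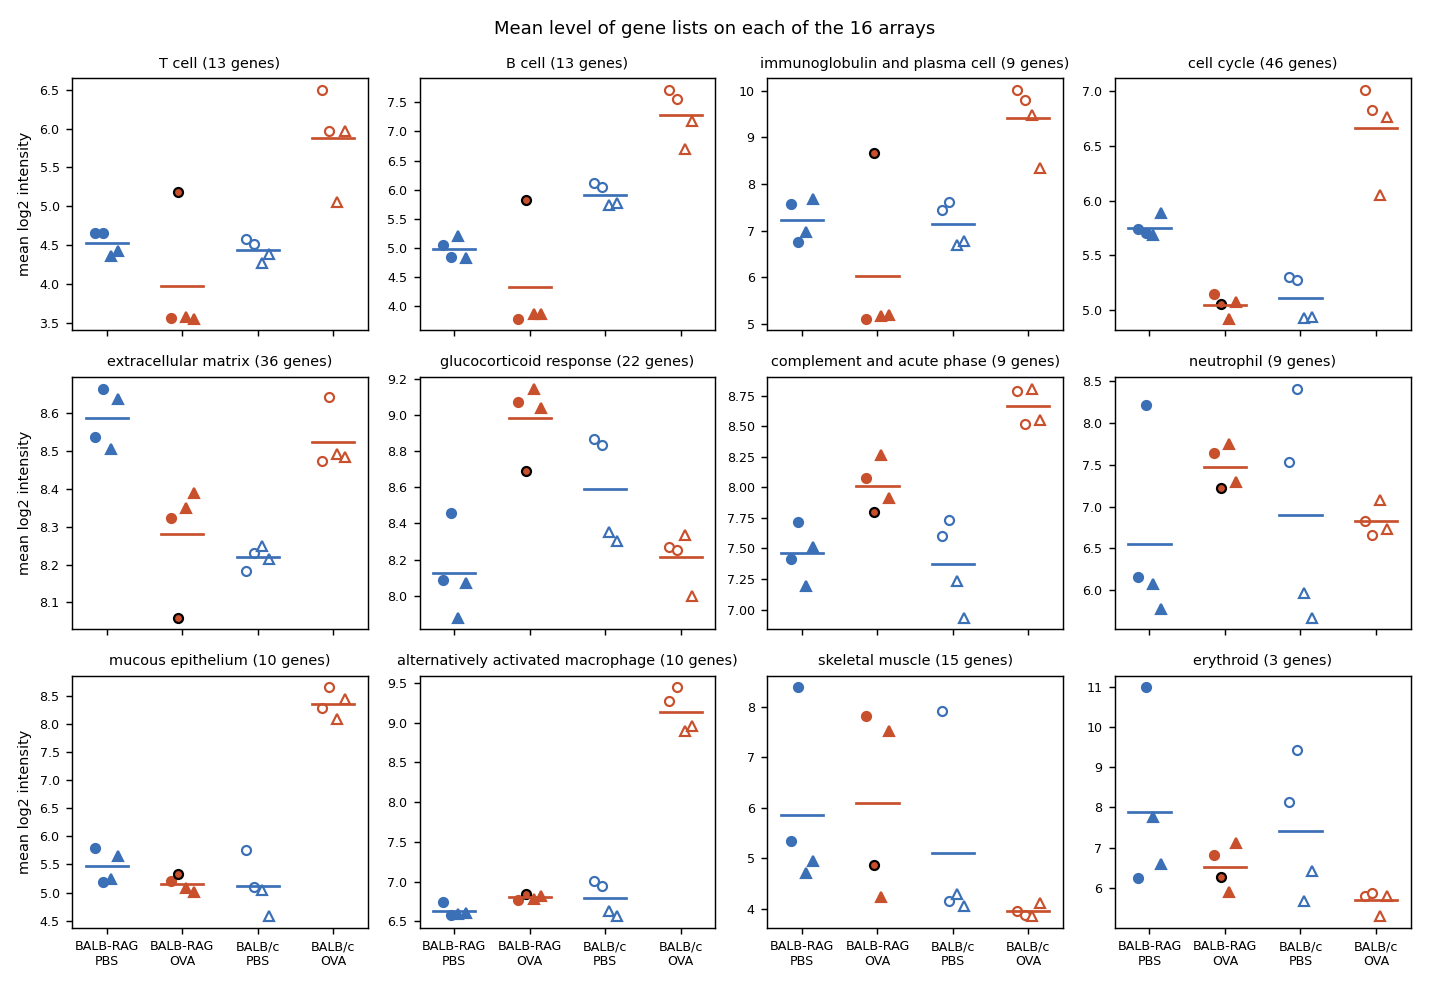
Mean log2 intensity (vertical axis) of the tested genes of 12 lists on each of the 16 arrays; blue is PBS and red is OVA, filled points are BALB-RAG and open points BALB/c, circles are replicates 1 and 2, triangles replicates 3 and 4, the black outline marks OVA replicate 2 of BALB-RAG and lines are group means. The lymphocyte lists of OVA replicate 2 lie at 5.19, 5.82 and 8.66, above the other exposed arrays, while its cell cycle level of 5.06 lies among them.

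On the extracellular matrix list, collagen chains and Sparc were the genes that fell, while the crosslinking enzyme Lox rose. Of 36 extracellular matrix genes 8 fell and 1 rose, beside 0.399% and 0.522% of all genes, and the median was −0.35. The 8 were the fibrillar collagen chains Col1a1, Col1a2 and Col5a2, the microfibril chains Col6a2 and Col6a3, Col14a1, which sits on fibrils, the basement membrane collagen Col18a1, and Sparc, a collagen-binding glycoprotein. In 10 of the 36 all OVA arrays lay below all PBS arrays, beside 1.95% of all genes. The matrix list too was drawn up with earlier results known.

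Col1a1 read 9.96, 10.06, 9.19 and 9.20 after PBS and 8.81, 7.89, 8.06 and 8.43 after OVA. Within each batch both exposed arrays lay below both controls, and Col1a1 was 2.47-fold lower (−1.31 ± 0.20, limma, adjusted p = 0.00726), a call kept in all 8 refits. Col1a1 lost that call with no batch term (limma, adjusted p = 0.0844). Col1a2, its partner chain in type I collagen, read 9.23, 9.39, 9.52 and 9.14 after PBS and 8.43, 7.69, 8.37 and 8.67 after OVA (2.04-fold lower, −1.03 ± 0.21, adjusted p = 0.0372). OVA replicate 2 was the lowest array for both chains.

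Col6a3 fell by 0.76 ± 0.14 (limma, adjusted p = 0.0211), Col6a2 by 0.77 ± 0.14 (adjusted p = 0.0214), Col14a1 by 0.74 ± 0.14 (adjusted p = 0.0217) and Sparc by 0.49 ± 0.10 (adjusted p = 0.0353). Eln, the precursor of elastin, read 9.50, 9.88, 9.03 and 8.42 after PBS and 8.19, 8.20, 8.17 and 7.94 after OVA, apart in every array without passing the test (−1.08 ± 0.27, adjusted p = 0.0833). The basement membrane chain Col4a1 gave −0.11 ± 0.12 (adjusted p = 0.735) and the matrix protease Mmp3 gave 0.75 ± 0.18 (adjusted p = 0.0752). The list's median was −0.52 within replicates 1 and 2 and −0.21 within replicates 3 and 4. It rested in part on OVA replicate 2, whose list mean of 8.06 was the lowest against 8.32 to 8.39 on the other exposed arrays and 8.51 to 8.67 on the controls. Without it 4 matrix genes were called as falls (Col1a1, Col6a2, Col6a3 and Col14a1).

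Falls outside these groups included metabolic genes and a death ligand. Cox6b2, a testis-type subunit of cytochrome c oxidase, read 7.51, 8.01, 6.59 and 5.95 after PBS and 5.83, 5.58, 4.90 and 4.94 after OVA. It was 3.25-fold lower (−1.70 ± 0.18, limma, adjusted p = 0.000499), kept its call in all 8 refits, and had no overlap between groups. Cox6b2 lost its call with no batch term (limma, adjusted p = 0.106). Tnfsf10, the death ligand TRAIL, read 7.07, 6.36, 6.22 and 7.07 after PBS and 6.01, 4.41, 5.23 and 4.06 after OVA (3.37-fold lower, −1.75 ± 0.34, adjusted p = 0.0288).

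Paip1, which binds the poly(A) binding protein in translation, read 7.40, 7.56, 5.62 and 8.16 after PBS and 5.08, 4.96, 5.27 and 5.11 after OVA. Exposed arrays were nearly equal and PBS replicate 3 lay close to them, so the 4.22-fold difference (−2.08 ± 0.38, limma, adjusted p = 0.0217) came from the other 3 controls. Pnpla3, a lipid droplet hydrolase, was under the background on 3 of the 4 OVA arrays, and its groups overlapped (−1.49 ± 0.27, adjusted p = 0.0214). With values under log2 4 set to 4 it differed by −1.22 ± 0.24 (limma, adjusted p = 0.0294). Stbd1, a glycogen-binding protein, was 2.17-fold lower (−1.11 ± 0.24, adjusted p = 0.0488). Tnfsf10, Paip1, Pnpla3 and Stbd1 kept their calls in 3, 2, 6 and 0 of the 8 refits.

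Transcripts of muscle differed widely between arrays of one group. The mean of 18 cardiac muscle genes was 10.64, 9.16, 7.51 and 10.42 on the PBS arrays and 9.82, 9.57, 7.85 and 9.61 on the OVA arrays, lowest on replicate 3 of both groups. The mean of 15 skeletal muscle genes was highest on PBS replicate 2 (8.38), OVA replicate 1 (7.81) and OVA replicate 4 (7.52). On the cardiac, skeletal, adipose and erythroid lists 0 genes were called (limma), with 1 gene of each lower at an unadjusted p under 0.05, and the part of these tissues in the called genes was not tested.

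The classical allergic genes did not pass the test on the arrays labelled BALB-RAG. Of 10 mucous epithelium genes 0 rose and 0 fell, with a median of −0.03. Of 7 type 2 cytokine and receptor genes and of 4 eosinophil genes 0 were called in either direction. Among 10 alternatively activated macrophage genes 1 rose (Chil3), with a median of 0.10. The mucous, type 2, eosinophil and macrophage lists named 23, 20, 14 and 20 gene symbols. The others had no realigned probe set or were too low to be tested, as were Il13, Prg2 and Ccr3. These counts therefore do not cover every gene of the allergic response. At an unadjusted p under 0.05, 1 mucous gene was higher and 2 were lower, 1 type 2 gene was higher, and 0 eosinophil genes differed. Of all genes 8% were higher and 5.39% lower. The filter took any 4 of the 16 arrays, so a gene could be tested through the BALB/c OVA arrays alone. A gene so admitted could lie under the background on every array labelled BALB-RAG.

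Clca1, a protein secreted by goblet cells, read 7.21, 2.80, 5.76 and 7.53 after PBS and 2.81, 6.11, 2.78 and 2.86 after OVA. It was thus above the background on 3 controls and on 1 exposed array, OVA replicate 2, and the difference did not pass the test (−2.19 ± 0.95, limma, adjusted p = 0.336). Chil4, a chitinase-like protein of the allergic airway, read 5.05, 4.61, 4.73 and 5.48 after PBS and 4.53, 4.92, 5.11 and 4.65 after OVA (−0.16 ± 0.25, adjusted p = 0.84). Arg1, the arginase of alternatively activated macrophages, was under the background on all 8 arrays. Rnase2a, an eosinophil-associated ribonuclease, was under it on 7 of the 8 and read 5.30 on OVA replicate 2.

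The T cell, B cell and immunoglobulin lists held 0 called genes each (limma). At an unadjusted p under 0.05 they held 4, 2 and 4 lower genes, beside 5.39% of all genes. Their medians were −0.53, −0.41 and −0.31. Without OVA replicate 2, the exposed array with the highest level of all 3 lists, 5 of 13 T cell genes, 4 of 13 B cell genes and 4 of 9 immunoglobulin genes fell. In that fit 81 genes were called in all, with 38 falls among the 7276 genes tested. Cd28, a costimulatory receptor of T cells, read 4.23, 3.87, 4.12 and 4.07 after PBS and 2.86, 4.15, 3.40 and 2.96 after OVA (−0.73 ± 0.24, limma, adjusted p = 0.2). Igha, the heavy chain of IgA, read 10.79, 8.45, 9.04 and 10.72 after PBS and 3.98, 10.97, 3.59 and 5.52 after OVA (−3.74 ± 1.14, adjusted p = 0.156). Igha was high on the 4 controls and on OVA replicate 2, while Cd28 lay near or under the background on all 8 arrays.

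The same exposure in BALB/c, fitted in the same model but with its own 4 controls, called 972 rises and 848 falls, or 25% of the genes tested. Of the 38 rises on the arrays labelled BALB-RAG, 12 also rose in BALB/c, 12 fell there and 14 passed the test in neither direction. Of the 29 falls, 4 also fell in BALB/c, 15 rose there and 10 passed in neither direction. Beside these counts, 13.4% of all genes rose and 11.7% fell in BALB/c.

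The difference between the 2 responses was tested gene by gene, and 16.7% of all genes passed. Of the 38 rises, 22 had a response that was higher on the arrays labelled BALB-RAG and 1 had a lower one (Ly6i), where 8.4% and 8.29% of all genes did. Of the 29 falls, 23 had a lower response and 0 a higher one. The 67 genes were chosen by their difference on the arrays labelled BALB-RAG, which is also a term of this test. The tallies therefore lean that way by choice, and the shares over all genes are no fair measure for them. For the remaining 15 rises and 6 falls no difference between the lines passed the test.

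Lcn2, Cfb, Csf2rb, Chil3, Cd14, C1ra and Ly6i rose in both lines. Lcn2 rose by 3.37 ± 0.34 in BALB/c, and its responses differed by −1.07 ± 0.48 (limma, adjusted p = 0.15). Cfb rose there by 2.48 ± 0.35, Csf2rb by 1.56 ± 0.24, Chil3 by 1.5 ± 0.17, Cd14 by 1.02 ± 0.19 and C1ra by 0.98 ± 0.11, with no difference between the lines passing the test (adjusted p between 0.0638 and 0.898). Ly6i rose by 4.00 ± 0.25 in BALB/c, which is 2.11 ± 0.36 more than on the arrays labelled BALB-RAG (adjusted p = 0.00127).

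Of the 22 glucocorticoid responsive genes 2 rose and 9 fell in BALB/c, with a median of −0.45, beside 13.4% and 11.7% of all genes, and 12 of the 22 had a higher response on the arrays labelled BALB-RAG, beside 8.4% of all genes. Of the 8 that rose on those arrays, Angptl4, Cebpd, Tsc22d3, Sult1a1 and Errfi1 fell in BALB/c, Lcn2 rose, and Fam107a (−0.72 ± 0.27, limma, adjusted p = 0.0685) and Glul (−0.17 ± 0.15, adjusted p = 0.449) were not called there. Cebpd fell by 1.40 ± 0.26 in BALB/c, a difference between the responses of 2.92 ± 0.36 (limma, adjusted p = 0.000133). Tsc22d3 fell by 1.30 ± 0.22 there, a difference of 2.43 ± 0.31 (adjusted p = 0.00014). Angptl4 fell by 1.03 ± 0.34 there, a difference of 3.32 ± 0.48 (adjusted p = 0.000348).

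The controls of the lines were not level for this list. Its mean was 7.88 to 8.46 on the PBS arrays labelled BALB-RAG and 8.30 to 8.87 on those of BALB/c. On the OVA arrays it was 8.69 to 9.15 for those labelled BALB-RAG and 8.0 to 8.33 for BALB/c.

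Of the 46 cell division genes 42 rose in BALB/c, with a median of 1.63, beside 13.4% of all genes. The filter could admit a gene through the BALB/c OVA arrays alone, which favours such rises. A lower response on the arrays labelled BALB-RAG was found for 41 of the 46, beside 8.29% of all genes. Mki67 rose by 2.59 ± 0.25 in BALB/c, and its responses differed by −4.23 ± 0.35 (limma, adjusted p = 6.59e-06). Col1a1 rose by 1.47 ± 0.20 there, a difference of −2.78 ± 0.29 (adjusted p = 3.09e-05). Of the 36 matrix genes 13 rose and 5 fell in BALB/c, beside 13.4% and 11.7% of all genes.

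Some genes that changed on the arrays labelled BALB-RAG were not called in BALB/c. Lox gave 0.41 ± 0.15 there (limma, adjusted p = 0.0533), and its responses differed by 1.15 ± 0.21 (adjusted p = 0.00185). Ccn2 gave −0.25 ± 0.18 in BALB/c and a difference of 1.40 ± 0.25 (adjusted p = 0.00175). Paip1 gave −0.07 ± 0.38 and a difference of −2.01 ± 0.54 (adjusted p = 0.02). Cox6b2 fell in both lines, by 0.68 ± 0.18 in BALB/c, with a larger fall on the arrays labelled BALB-RAG (difference −1.02 ± 0.25, adjusted p = 0.0122).

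**Figure D3:**
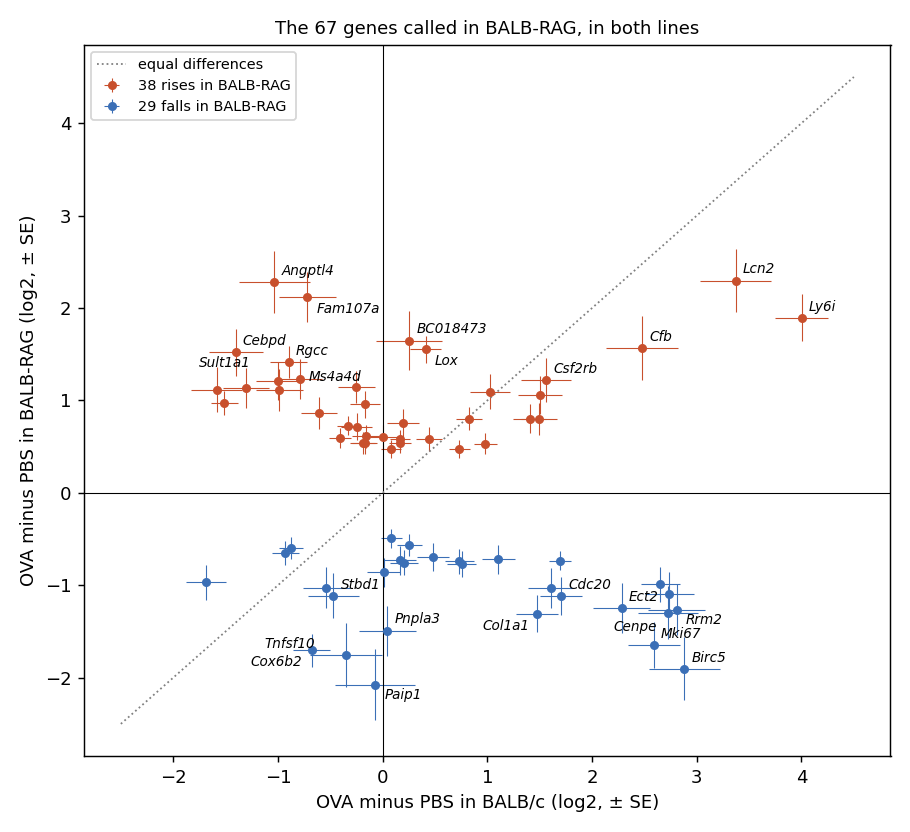
OVA minus PBS (log2) of the 67 called genes, in BALB/c (horizontal axis) and on the arrays titled BALB-RAG (vertical axis); red points are the 38 rises, blue points the 29 falls, bars are standard errors and the dotted line marks equal differences, with the 12 largest rises and 12 largest falls named. Lcn2, Ly6i, Cfb and Csf2rb lie in the quadrant of rises in both lines, while Mki67 and Birc5 fell here and rose in BALB/c.

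The allergic lists differed among themselves in BALB/c. There 9 of 10 mucous genes rose (median 2.56) and 8 of 10 alternatively activated macrophage genes (median 1.54), but 3 of 7 type 2 cytokine and receptor genes (median 0.51) and 1 of 4 eosinophil genes (median 0.57), beside 13.4% of all genes. Lower responses on the arrays labelled BALB-RAG passed the test for 8 of the 10 mucous genes, 6 of the 10 macrophage genes, 2 of the 7 type 2 genes and 1 of the 4 eosinophil genes, beside 8.29% of all genes. A gene entered the test if any 4 of the 16 arrays exceeded log2 4, so the 4 BALB/c OVA arrays alone could admit it. List shares can lean towards rises in BALB/c for that reason and are given as a description. Chil4 rose by 7.03 ± 0.25 in BALB/c, a difference between the responses of −7.20 ± 0.35 (limma, adjusted p = 2.25e-08). Of 15 dendritic cell and MHC class II genes 13 rose in BALB/c, beside 13.4% of all genes, and 0 on the arrays labelled BALB-RAG (limma). At an unadjusted p under 0.05, 4 of the 15 were higher on those arrays, beside 8% of all genes. Lower responses there passed the test for 12 of the 15, beside 8.29% of all genes.

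**Figure D4:**
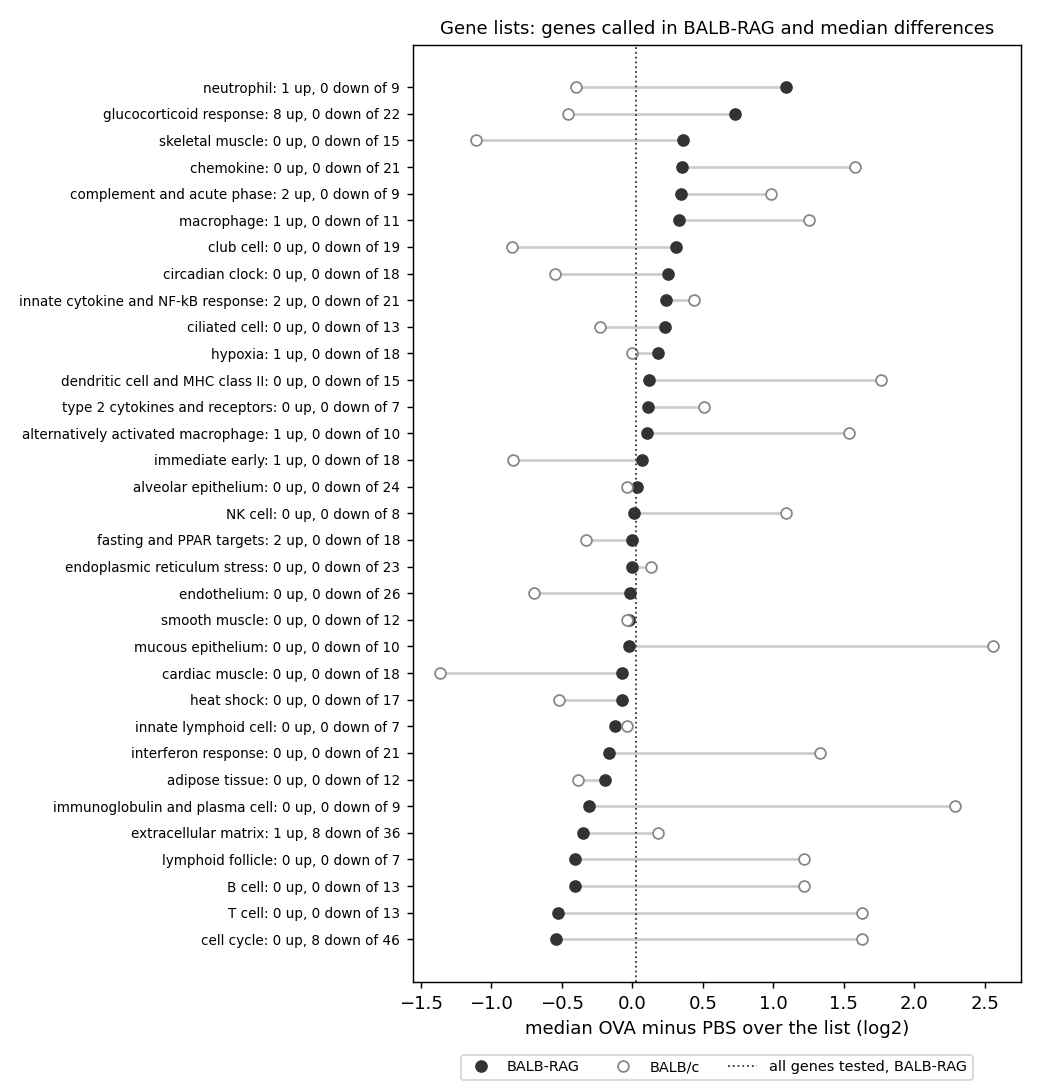
Median OVA minus PBS (log2, horizontal axis) over the tested genes of each list with 5 or more of them, filled points for BALB-RAG and open points for BALB/c; the labels give how many genes of the list were called in BALB-RAG, and the dotted line is the median over all genes in BALB-RAG (0.02). The neutrophil (1.09) and glucocorticoid response (0.73) lists lie highest in BALB-RAG and the cell cycle list (−0.54) lowest, while in BALB/c the mucous epithelium list is highest (2.56).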

How the data were processed

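Whole lung RNA (6 µg of total RNA per array, biotin-labelled) was hybridised to 16 arrays. Per the submitters' processing notes, the authors made the deposited intensity values with GCRMA, version not given in the sources used here; they are linear, from 2.32 to 35180.77, and log2 was taken with no further normalisation. The number of arrays limits the precision. No identical columns were found.

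Probe set labels in the deposited table do not sit beside their own values. In 3 runs, 14300 of 45101 labels were moved: 4000 took the values 64 rows above, 7500 those 47 rows below and 2800 those 16168 rows below. The median correlation between probe sets of one gene over the arrays was 0.67, 0.62 and 0.63 in these runs, against 0.16, 0.13 and 0.15 as deposited. For the second run the direction was settled from the data: 47 rows above gave 0.03. All gene names rest on this step, which no source used here describes, and the other labels were not used. Of the moved labels 13146 had 1 symbol in the platform annotation, 366 several (not used) and 788 none; checking them against RefSeq (GRCm38.p6) altered 0 symbols. Array annotation can be old.

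Genes above log2 4 on at least 4 of the 16 arrays, in any group, were tested, each through the probe set with the highest mean. A gene above the background only in BALB/c after OVA could thus enter the test. limma 3.58.1 in R 4.3.3 fitted 4 group means and a batch term for replicates 1-2 against 3-4 over 16 arrays (11 residual degrees of freedom), with Benjamini-Hochberg adjustment at 0.05. "At least" folds set values under log2 4 to 4. In simulated data with 7276 genes, 100 of them changed at each size, 90% of changes of log2 1 and 95% of log2 2 were recovered in the BALB-RAG comparison, and 3.65% of calls were false. The simulated noise was normal and independent between genes and arrays, with no array set apart as OVA replicate 2 was. These shares therefore do not measure recovery or false calls on the real arrays. Of 25 other probe sets for 20 called genes, 24 had the same sign; that for Tbc1d15 did not.

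The comparison, the 37 gene lists and the naming rule were chosen with earlier results of these data known. The rule names the 12 largest rises and 12 largest falls with the same sign in both batches, in each list the members with the lowest p (at most 4), and Rag1 and Rag2. Other genes named were chosen after their values were seen. Numbers of the replicates did not pair the arrays: deviations of same-numbered PBS and OVA arrays correlated at 0.12, 0.03, 0.48 and 0.20.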

Additional observations from a re-analysis of the deposited data

Results flagged for a closer look

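A sample that stood apart from the other 3 of its group was found in 19 of 216 sets of 4 arrays labelled BALB-RAG; chance marks about 1 in 20 such groups. OVA replicate 2 stood apart from the other exposed arrays in 8 of them. It was high for Cd3d (7.03), Jchain (10.52) and Clca1 (6.11) and for the mean levels of the T cell (5.19), B cell (5.82), immunoglobulin (8.66) and eosinophil (4.96) lists, and low for Cfb (7.18). OVA replicate 3 was high for Serpina3n (9.83) and low for the cardiac muscle (7.85) and adipose tissue (7.65) lists, and OVA replicate 4 was low for Eln (7.94). Of the controls, PBS replicate 2 was high for Ppbp (11.62) and for the neutrophil list (8.21), and PBS replicate 1 for the alternatively activated macrophage list (6.74). PBS replicate 3 was low for C1ra (7.26) and Sult1a1 (8.09). PBS replicate 4 was high for Ms4a4d (10.11) and low for Rnase2a (3.17).

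The response to OVA differed between the lines (limma test of the difference, adjusted p under 0.05) for 55 of the 71 genes named. Of all genes tested 16.7% did. Most of the named genes were picked by their BALB-RAG difference, a term of this test, or after their values were seen. The count thus follows largely from that choice and is given as a description. Values are the BALB-RAG response minus the BALB/c response on the log2 scale, each from 4 arrays per group. Among cell division genes the differences were −4.78 for Birc5, −4.23 for Mki67, −4.07 for Rrm2, −4.02 for Cenpe, −3.64 for Ccna2, −3.53 for Ect2, −2.82 for Cdc20, −2.43 for Cks1b, −1.19 for Mcm6, −1.13 for Mcm2 and −0.98 for Pcna. Among matrix genes they were −2.78 for Col1a1, −2.63 for Col1a2, −2.16 for Eln, −1.82 for Col5a2, −1.52 for Col6a2, −1.47 for Col14a1, −1.17 for Col18a1, −0.96 for Col6a3 and −0.58 for Sparc. Matrix regulators lay on the other side, with 1.63 for Mmp3, 1.47 for Nox4, 1.40 for Ccn2 and 1.15 for Lox.

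Glucocorticoid responsive and metabolic genes had the higher response on the arrays labelled BALB-RAG. The differences were 3.40 for Pdk4, 3.32 for Angptl4, 2.92 for Cebpd, 2.84 for Fam107a, 2.70 for Errfi1, 2.43 for Tsc22d3, 2.21 for Sult1a1, 1.13 for Glul and 0.97 for Txnip. Cyp2e1 gave 3.74. Other genes on this side were Fibin (2.49), Rgcc (2.31), Maff (2.10), Ms4a4d (2.02), BC018473 (1.39), the clock genes Per2 (1.39) and Rora (1.08), and Clk1 (1.06). Lower responses were found for the lymphocyte genes Jchain (−8.24), Igha (−7.55), Cd3d (−3.77) and Cd28 (−2.37). They were also found for the allergic genes Clca1 (−11.08), Chil4 (−7.20), Rnase2a (−6.63) and Arg1 (−5.97), and for Iigp1 (−3.10), Ly6i (−2.11), Paip1 (−2.01), Pnpla3 (−1.54) and Cox6b2 (−1.02).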

How the results depend on the processing

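The 67 called genes became 12 with no batch term, 35 with array weights, 23 with the longest run of labels alone, 9 with the 8 arrays of the line fitted by themselves, 3 within replicates 1 and 2 and 5 within replicates 3 and 4. Leaving out 1 array gave 20 to 81. With the replicate block in place of the batch, the count was 41 and 38 of the 67 genes were kept, although the numbers do not pair the arrays (2 of the 4 OVA arrays correlated best with the PBS array of their number). Among alternatives chosen after seeing the data, 44 genes were called with the second run of labels read 47 rows above, and 128 of all value rows without names. In BALB/c the 1820 genes became 1128 with no batch term and 732 with the longest run, and the 1214 differences between the lines became 618 and 461. Leaving out 1 array labelled BALB-RAG gave 1772 to 1903 and 996 to 1240 for these. No BALB/c array was left out, so these ranges do not show how the counts depend on single BALB/c arrays. The other alternatives (no filter, a filter at log2 6, a floor at log2 4, the median over probe sets, all realigned probe sets, no second run, and a batch term for each line) moved each count that they gave by less than 1.5 times. No named gene reversed a called difference under the alternatives in which genes were compared one by one. That comparison was not made for the second run read 47 rows above, all value rows without names, or all realigned probe sets. Why these counts moved was not tested. Genes under log2 4 in a group have only a bound there. At an unadjusted p under 0.05 there were 582 rises and 392 falls, and 67 genes passed the adjustment.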

Other observations

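Airway and clock genes leaned upwards on the arrays labelled BALB-RAG without passing the test. Club cells are the secretory cells of the small airways and carry much of the lung's drug-metabolising capacity. Of 19 club cell genes 0 rose and 0 fell (limma), and the median was 0.31 against 0.02 over all genes. At an unadjusted p under 0.05, 6 were higher, beside 8% of all genes. Cyp2e1, a cytochrome P450 that oxidises ethanol, read 9.26, 9.08, 8.08 and 9.42 on PBS replicates 1 to 4 and 10.01, 10.36, 9.92 and 10.11 on OVA replicates 1 to 4. All exposed arrays were higher (1.14 ± 0.35, limma, adjusted p = 0.154). In BALB/c it fell by 2.60 ± 0.35, and the responses differed by 3.74 ± 0.49 (adjusted p = 0.000176). For 14 of the 19 genes the response was higher on the arrays labelled BALB-RAG than in BALB/c, beside 8.4% of all genes. In BALB/c 13 of the 19 fell, beside 11.7% of all genes.

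Of 18 circadian clock genes 0 were called in either direction (limma), and the median was 0.25. At an unadjusted p under 0.05, 4 were higher, beside 8% of all genes. Rora, a nuclear receptor of the clock, read 7.44, 7.44, 7.06 and 7.68 after PBS and 7.99, 7.91, 7.91 and 7.98 after OVA (0.55 ± 0.12, adjusted p = 0.0528), with all exposed arrays above all controls. Per2, a repressor of the clock, read 7.89, 7.65, 8.07 and 8.74 after PBS and 8.59, 8.98, 8.76 and 8.80 after OVA (0.70 ± 0.19, adjusted p = 0.115), and its groups overlapped through PBS replicate 4. Of 21 interferon response genes 0 were called, 15 were negative and 3 were lower at an unadjusted p under 0.05, beside 5.39% of all genes. Iigp1, an interferon-induced GTPase, gave −0.68 ± 0.16 (adjusted p = 0.0711). In BALB/c 18 of the 21 rose, beside 13.4% of all genes.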
